A study of Mus musculus with 14 samples.

Results

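The miR-30 family consists of microRNAs (miRNAs) cut from a group of related hairpins, and both arms of the hairpins miR-30a, miR-30b, miR-30c, miR-30d and miR-30e were followed through the mouse epididymis. The members were chosen by name, as a given list of 10 arms of these hairpins, and all 10 stand in both deposited tables of counts. They made up 10 of 900 mature miRNA names listed for whole tissue and 10 of 677 listed for epithelial cells. The 5p arms were miR-30a-5p, miR-30b-5p, miR-30c-5p, miR-30d-5p and miR-30e-5p, and the 3p arms were miR-30a-3p, miR-30b-3p, miR-30c-2-3p, miR-30d-3p and miR-30e-3p. In addition, 1 further arm of the family, miR-30c-1-3p, is listed in both tables, was not a member, and is described apart from them.

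The epididymis, the duct in which sperm mature after leaving the testis, was divided into the caput, corpus and cauda, in the order in which sperm pass them. All animals were untreated male Swiss mice of 8 weeks, and their vessels were flushed with buffered saline before dissection. Small RNA was sequenced from whole tissue, pooled from 3 mice for a replicate, and from isolated epithelial cells, pooled from 9 to 12 mice. For these cells most cauda sperm were flushed out, and caput and corpus tissue was cut and washed to remove sperm. The tissue was then digested with enzymes, and cells that stuck to culture plates, described as fibroblasts and muscle cells, were left behind. The study reports highly enriched epithelial cells by androgen receptor staining, with no sperm marker detected in them. Whole tissue gave 3 caput, 2 corpus and 3 cauda libraries, and epithelial cells gave 2 libraries for each region.

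The files hold the number of reads assigned to each mature miRNA. The total counts in whole tissue were 1739805, 1724443 and 2135501 (caput), 1243398 and 1390826 (corpus) and 1777731, 1457959 and 1562100 (cauda). In epithelial cells they were 362867 and 324907 (caput), 127111 and 89039 (corpus) and 283284 and 179060 (cauda). The epithelial libraries were thus all shallower than the whole tissue libraries, and the epithelial corpus libraries were the shallowest. Levels are given as CPM, counts brought to an equal library size with TMM factors, which equalize the bulk of the miRNAs between libraries. Libraries of the same region differed by more than the sampling of reads would give, and the errors printed are therefore between libraries. The p-values measure only the spread between libraries, which may be technical, since the study calls its replicates biological in several places and technical in 1. Its methods give 2 replicates for each region, with analysis of the libraries in triplicate, against the 3 libraries present for the whole caput and the whole cauda.

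Marker miRNAs were summed in each library to check the labelled tissues, with every spelling of a name that either table could hold counted as a name. The epithelial list, which is the miR-200 family and miR-205-5p, had 6 of 6 names listed and took 2.0, 1.99 and 1.87% of whole tissue counts (caput), 1.96 and 1.91% (corpus) and 1.08, 0.912 and 0.976% (cauda). In the epithelial libraries it took 2.52 and 2.49% (caput), 3.75 and 4.46% (corpus) and 3.19 and 4.81% (cauda). None of its names was at 0 in any library, and the most abundant were miR-200a-3p in whole tissue and miR-205-5p in epithelial cells. The summed epithelial list was thus higher in every epithelial library than in every whole tissue library, and within whole tissue it was lowest in the cauda. In the epithelial libraries miR-205-5p alone took 0.990 and 1.03% (caput), 2.02 and 2.45% (corpus) and 1.92 and 2.63% (cauda). The list was not compared without it, so a higher level of the miR-200 family itself is not shown.

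The smooth muscle list, with 4 of 6 names listed and miR-143-3p nearly all of it, took 5.90, 4.84 and 4.54% of whole tissue counts (caput), 8.65 and 8.36% (corpus) and 26.9, 24.9 and 27.0% (cauda). In the epithelial libraries it took 12.8 and 18.7% (caput), 20.6 and 23.1% (corpus) and 31.9 and 18.5% (cauda), where miR-143-5p was at 0 in the first corpus library. These muscle miRNAs were therefore not absent from the cells labelled epithelial, and in whole tissue they were higher from each region to the next. The endothelial list, with 2 of 4 names listed and the 5p arm of miR-126 most abundant, took between 1.24 and 1.93% in whole tissue and between 1.39 and 5.45% in epithelial libraries, with none at 0. It was highest in the epithelial cauda, at 5.37 and 5.45%, against 3.17 and 2.44% (caput) and 1.39 and 1.44% (corpus).

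The germ cell list, with 17 of 17 names listed and miR-34c-5p most abundant, took between 0.399 and 1.65% of whole tissue counts, with no overlap between regions and the cauda highest. Its epithelial values were 0.400 and 0.374% (caput), 0.412 and 0.296% (corpus) and 0.268 and 0.819% (cauda). At 0 were up to 2 of its 17 names in a whole tissue library and 1 to 5 in an epithelial library, most often miR-883b-3p and miR-471-5p. The second epithelial cauda library therefore held more of the germ cell list than any other epithelial library. The stromal fibroblast list (5 of 5 names, none at 0) took between 0.163 and 0.447% in whole tissue and between 0.261 and 0.651% in epithelial cells. The leukocyte list (5 of 7 names, with miR-155-5p at 0 in 2 libraries and miR-223-3p in 1) took between 0.0863 and 0.221% and between 0.0449 and 0.161%, respectively. The red blood list (5 of 7 names in whole tissue and 4 in epithelial cells, with both miR-144 arms at 0 in 1 epithelial library) took between 0.0129 and 0.274% and between 0.0201 and 0.281%. The striated muscle list (4 of 5 names in whole tissue and 3 in epithelial cells), with miR-206-3p at 0 in 4 whole tissue libraries and not listed for epithelial cells, stayed between 0.00276 and 0.0960% and between 0.0333 and 0.0640%. The most abundant names in these lists were an arm of miR-199a, the 5p arm of miR-142, the 5p arm of miR-486 and miR-133a-3p. The part that cell composition played in the results below was not tested. In such bulk samples, fewer cells of a type and less RNA per cell cannot be told apart.

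A miRNA hairpin is cut by Dicer into a short duplex, from which either strand, the 5p arm or the 3p arm, can be loaded into an Argonaute protein while the other is mostly degraded. The loaded arm finds target transcripts mainly through its seed, the bases near its 5′ end, so that arms with the same seed can share targets and the arms of 1 hairpin usually do not. The miR-30 5p arms are abundant in many epithelia and are known for repressing Snai1, a factor of epithelial to mesenchymal transition, and Becn1, a gene of autophagy.

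Mature sequences from RefSeq (GRCm38.p6) were found for 6 of the 10 members, all of them arms of miR-30a, miR-30c or miR-30e. They are shown because they group the arms by seed and because the differences between miR-30a and miR-30e bear on how reads are told apart. Each is written 5′ to 3′, with bases 2 to 8, the seed, in capitals.
miR-30a-5p: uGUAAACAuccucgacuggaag
miR-30c-5p: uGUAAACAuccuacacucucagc
miR-30e-5p: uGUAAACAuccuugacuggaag
miR-30a-3p: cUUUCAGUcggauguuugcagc
miR-30e-3p: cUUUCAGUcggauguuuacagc
miR-30c-2-3p: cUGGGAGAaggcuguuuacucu
miR-30c-1-3p: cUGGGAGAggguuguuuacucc
The 3 5p arms shared the seed GUAAACA, miR-30a-3p and miR-30e-3p shared UUUCAGU, and miR-30c-2-3p had UGGGAGA together with miR-30c-1-3p, the further arm of the family. Counted from 1 at the 5′ end, miR-30a-5p differed from miR-30e-5p only by C13U, and miR-30a-3p from miR-30e-3p only by G18A, with the first 17 bases shared. A read of miR-30a-3p or miR-30e-3p that ends before base 18 fits both arms. The counts of both arms ended in 0.5 in the same 5 of 8 whole tissue libraries and in none of the 6 epithelial libraries. How reads that fit both were counted is not stated. No other member had a fractional count. Among the other listed miRNAs with a RefSeq sequence, only miR-384-5p carried the 5p seed, and it had at most 4 counts in a library.

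The hairpins lie in 3 pairs on GRCm38.p6. Mir30a (chr1:23272269-23272339) and Mir30c-2 (chr1:23291701-23291784) are on the plus strand with 19361 bases between them. Mir30c-1 (chr4:120769534-120769622) and Mir30e (chr4:120772606-120772697) are on the minus strand with 2983 bases between them, both in introns of Nfyc, which encodes a subunit of the transcription factor NF-Y. Mir30b (chr15:68337415-68337510) and Mir30d (chr15:68341208-68341289) are on the minus strand with 3697 bases between them and overlap exons of noncoding transcripts. The mature arm miR-30c-5p is the same for the hairpins miR-30c-1 and miR-30c-2, so its counts come from 2 loci.

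The 5p arms were the abundant side of the family. Summed, they took 1.15, 1.18 and 1.11% of whole tissue counts (caput), 1.63 and 1.83% (corpus) and 1.27, 1.22 and 1.33% (cauda). In epithelial cells they took 1.51 and 1.73% (caput), 2.05 and 2.67% (corpus) and 2.30 and 2.39% (cauda). In both preparations every caput library had a lower share than every corpus and every cauda library, and in whole tissue the corpus was also above the cauda. With the TMM scaling used for the levels below, the order of whole caput and cauda was the opposite, the summed 5p arms standing at 12836, 14034 and 13044 CPM (caput), 15098 and 16670.4 (corpus) and 11615, 10969 and 12276 (cauda). Whether the summed 5p arms were higher in the whole caput or the whole cauda therefore depended on the scaling, while the corpus was highest with both. From caput to corpus their share differed on the log2 scale by 0.59 (whole tissue) and 0.53 (epithelial cells), and from caput to cauda by 0.15, a sign that the TMM scaling turns, and 0.53. The first of these ran in whole tissue from 0.50 without the second corpus library to 0.67 without the first, and in epithelial cells from 0.34 without the second corpus library to 0.72 without the first. The 3p arms summed to 0.134, 0.138 and 0.123% (caput), 0.113 and 0.109% (corpus) and 0.118, 0.101 and 0.122% (cauda). In epithelial cells they summed to 0.180 and 0.182% (caput), 0.181 and 0.222% (corpus) and 0.308 and 0.247% (cauda). Unlike the 5p arms, the 3p arms had their highest share of whole tissue in the caput, where every library was above every cauda and every corpus library. In epithelial cells the cauda held the highest 3p share. From caput to cauda the 3p share differed by -0.22 (whole tissue) and 0.61 (epithelial cells) on the log2 scale. Without each library in turn these ran, respectively, over -0.27 to -0.13 and 0.45 to 0.77. With the TMM scaling the whole caput was again highest, and further above the others, at 1499, 1645 and 1438 CPM summed over the 3p arms (caput), 1050.4 and 994 (corpus) and 1081, 906 and 1122 (cauda). In epithelial cells the sums were 2035 and 1904 CPM (caput), 1866 and 2022 (corpus) and 3251 and 2111 (cauda). These shares depend on all other miRNAs in a library and were not tested.

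**Figure D1:**
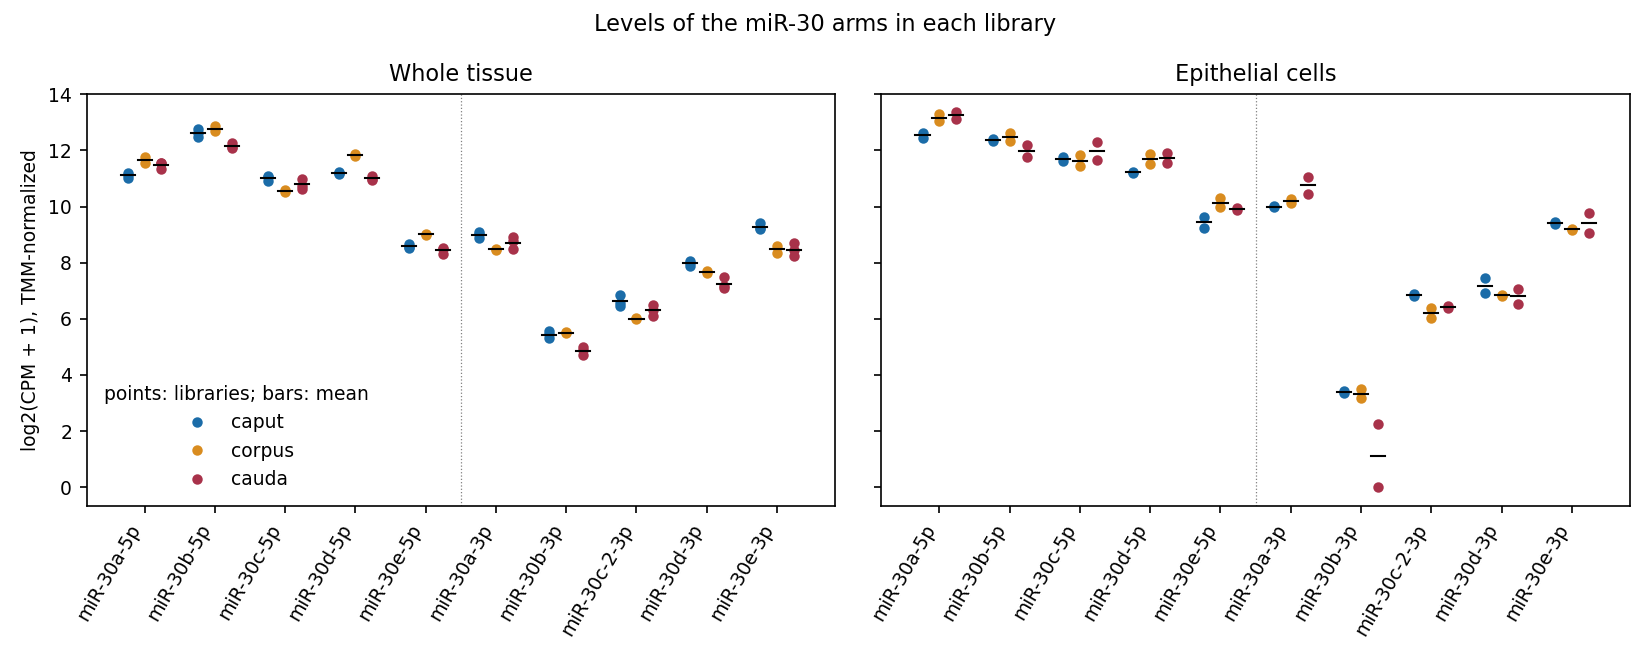
Level of each miR-30 arm in each library, as log2 of CPM plus 1, with 5p arms left and 3p arms right of the dotted line; points are libraries and bars are means of the plotted values. miR-30b-5p stood highest in whole tissue and miR-30a-5p in epithelial cells, and miR-30b-3p was the lowest arm in both.

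miR-30b-5p was the most abundant member in whole tissue. It reached 5735, 6929 and 6223 CPM (caput), 6558 and 7457 (corpus) and 4341, 4411 and 4969 (cauda). The epithelial values were 5380.3 and 5165 CPM (caput), 5161 and 6342 (corpus) and 4725 and 3477 (cauda). The cauda was lowest in both preparations, with no overlap with the caput or the corpus, while caput and corpus overlapped. miR-30d-5p, from the hairpin next to miR-30b, reached 2427, 2328 and 2277 CPM (caput), 3549.5 and 3704 (corpus) and 2187, 2014 and 1986 (cauda) of whole tissue. In the epithelial libraries it stood at 2349 and 2419.6 CPM (caput), 3781 and 2962 (corpus) and 2983 and 3792 (cauda). Both whole corpus libraries thus stood above all caput and cauda libraries, while in epithelial cells the corpus and cauda overlapped and both stood above the caput.

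miR-30a-5p, for which Becn1 is a known target, reached 2357, 2231 and 2056 CPM (caput), 2999 and 3443 (corpus) and 3005, 2594 and 2981 (cauda) of whole tissue. In epithelial cells it reached 5586 and 6276 CPM (caput), 8390.1 and 10089.97 (corpus) and 10504 and 8955 (cauda). It was lowest in the caput in both preparations, and its corpus and cauda overlapped. miR-30c-5p, known for repressing Mttp, a gene of lipoprotein assembly, reached 1908, 2171 and 2121 CPM (caput), 1476 and 1558 (corpus) and 1712, 1593 and 2023 (cauda) of whole tissue. The epithelial values were 3162 and 3476 CPM (caput), 2799 and 3625 (corpus) and 5023 and 3257 (cauda). In whole tissue the corpus was below both other regions, and in epithelial cells the first cauda library stood above the rest while the other libraries of all regions overlapped. miR-30e-5p, the least abundant 5p arm in every region of both preparations, reached 408, 375 and 367 CPM (caput), 516 and 509 (corpus) and 370.04, 356 and 317 (cauda) of whole tissue. In the epithelial libraries it stood at 601 and 796 CPM (caput), 1014 and 1256 (corpus) and 987 and 941 (cauda). The whole corpus was above both other regions, and the epithelial caput was below both other regions.

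The order of the 5p arms differed between the preparations. In whole tissue miR-30b-5p was first in every library, with a ratio to the next arm of 2.69 (caput), 1.93 (corpus) and 1.60 (cauda). In epithelial cells miR-30a-5p was first in every library, with a ratio to miR-30b-5p of 1.12 (caput) and 1.61 (corpus) and to miR-30c-5p of 2.35 (cauda). In the whole caput the next 3 arms, miR-30d-5p at 2344 ± 76.1 CPM (SD, n = 3), miR-30a-5p at 2215 ± 151 and miR-30c-5p at 2067 ± 139, overlapped with their neighbours in the order. Other neighbours that overlapped were miR-30d-5p and miR-30c-5p in the whole cauda and the epithelial corpus, and miR-30c-5p, miR-30b-5p and miR-30d-5p in the epithelial cauda. The levels of the preparations were not tested against each other. They were counted apart, under lists of 900 and 677 names that shared 578. Any difference in sequencing or counting coincided with the preparation, and it cannot be told apart from a difference between the cells.

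Within the 5p arms, the share of miR-30b-5p was lower and that of miR-30a-5p higher toward the cauda. miR-30b-5p made up 47.3% ± 2.38 (SD, n = 3) of the 5p counts in the whole caput, 44.1% ± 0.915 (n = 2) in the corpus and 39.4% ± 1.72 (n = 3) in the cauda. miR-30a-5p made up 16.7% ± 1.47, 20.3% ± 0.559 and 24.6% ± 1.14 of them. In epithelial cells (n = 2) miR-30b-5p made up 30% ± 2.14 (caput), 25.3% ± 1.22 (corpus) and 18.3% ± 1.76 (cauda), and miR-30a-5p 33.7% ± 1.35, 40.6% ± 1.33 and 43.6% ± 0.341. The share of miR-30b-5p was thus lower, and that of miR-30a-5p higher, in every cauda library than in every caput library of the same preparation. miR-30c-5p had its lowest share in the corpus in both, 9.56% of whole tissue and 14.1% of epithelial cells, and miR-30e-5p held between 2.89 and 4.99% in all regions.

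Ratios between 2 arms in the same library do not depend on the scaling. Each of the 10 pairs of 5p arms was compared between caput and cauda over both preparations with an exact two-sided permutation test that exchanged labels only within a preparation. The smallest p that it can give is 0.0167 (2 of 120 arrangements). The ratio of miR-30a-5p to miR-30b-5p was higher in the cauda, by 0.83 on the log2 scale in whole tissue and 1.09 in epithelial cells (mean 0.96, exact p = 0.0167, 0.0417 adjusted over the 10 ratios computed). The ratio of miR-30a-5p to miR-30c-5p was higher by a mean of 0.51, that of miR-30a-5p to miR-30e-5p by 0.37, and that of miR-30b-5p to miR-30c-5p changed by -0.45, each with the same exact p. For these 4 ratios every cauda library lay on the same side of every caput library of its preparation, which the smallest p requires and which adds nothing to it. The adjusted p of 0.0417 depended on 4 of the 10 ratios being at the smallest p. The ratios to miR-30b-5p, miR-30c-5p and miR-30e-5p share miR-30a-5p and are not independent. The 4 calls were lost when any of 5 libraries was left out, namely the first or second whole caput library, the first or second epithelial caput library or the first epithelial cauda library. Over all libraries left out in turn, the change of miR-30a-5p to miR-30b-5p lay between 0.90 and 1.02. That of miR-30a-5p to miR-30c-5p lay between 0.41 and 0.61, and that of miR-30a-5p to miR-30e-5p between 0.31 and 0.43. For miR-30b-5p to miR-30c-5p the range was -0.50 to -0.40. Without the second epithelial cauda library the ratio of miR-30a-5p to miR-30e-5p was 0.41 and no longer passed, and that of miR-30a-5p to miR-30d-5p passed at 0.53. The other 6 ratios had adjusted p-values of 0.0555 or more, among them miR-30b-5p to miR-30d-5p at -0.57 and miR-30b-5p to miR-30e-5p at -0.59.

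The 3p arms were less abundant, with miR-30e-3p and miR-30a-3p the highest of them. miR-30e-3p reached 580.2, 683 and 609 CPM (caput), 389.99 and 327 (corpus) and 345, 303 and 414 (cauda) of whole tissue. In epithelial cells it reached 694 and 657 CPM (caput), 576 and 592 (corpus) and 882 and 535 (cauda). In whole tissue every caput library was above every other library, and in epithelial cells the first cauda library was highest. miR-30a-3p reached 523, 542 and 471 CPM (caput), 354 and 353 (corpus) and 436, 356 and 476 (cauda) of whole tissue. The epithelial values were 1039 and 1005 CPM (caput), 1104 and 1226 (corpus) and 2148 and 1399 (cauda). It was lowest in the whole corpus, while in epithelial cells both cauda libraries, which differed widely, were above all others.

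miR-30d-3p reached 255, 264 and 234 CPM (caput), 198 and 208 (corpus) and 179, 142 and 134 (cauda) of whole tissue, with no overlap between regions. Each epithelial library held 11 to 56 counts of it. miR-30c-2-3p reached 94.6, 114 and 86.2 CPM (caput), 63.5 and 62.3 (corpus) and 90.1, 79.4 and 68.4 (cauda) of whole tissue, where the corpus was below both other regions, and it had 8 to 38 counts in an epithelial library. miR-30b-3p, the counterpart of the most abundant 5p arm, reached only 46.3, 42.8 and 38.4 CPM (caput), 44.8 and 43.9 (corpus) and 30.9, 25.2 and 28.9 (cauda) of whole tissue, lowest in the cauda. Its epithelial counts were 3 and 3 (caput), 1 and 1 (corpus) and 1 and 0 (cauda), too few for a test of its level. Over the 6 epithelial libraries it made up 9 of 6595 counts of the hairpin, which is 0.136% (exact 95% interval 0.0624 to 0.259%, counting error only).

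**Figure D2:**
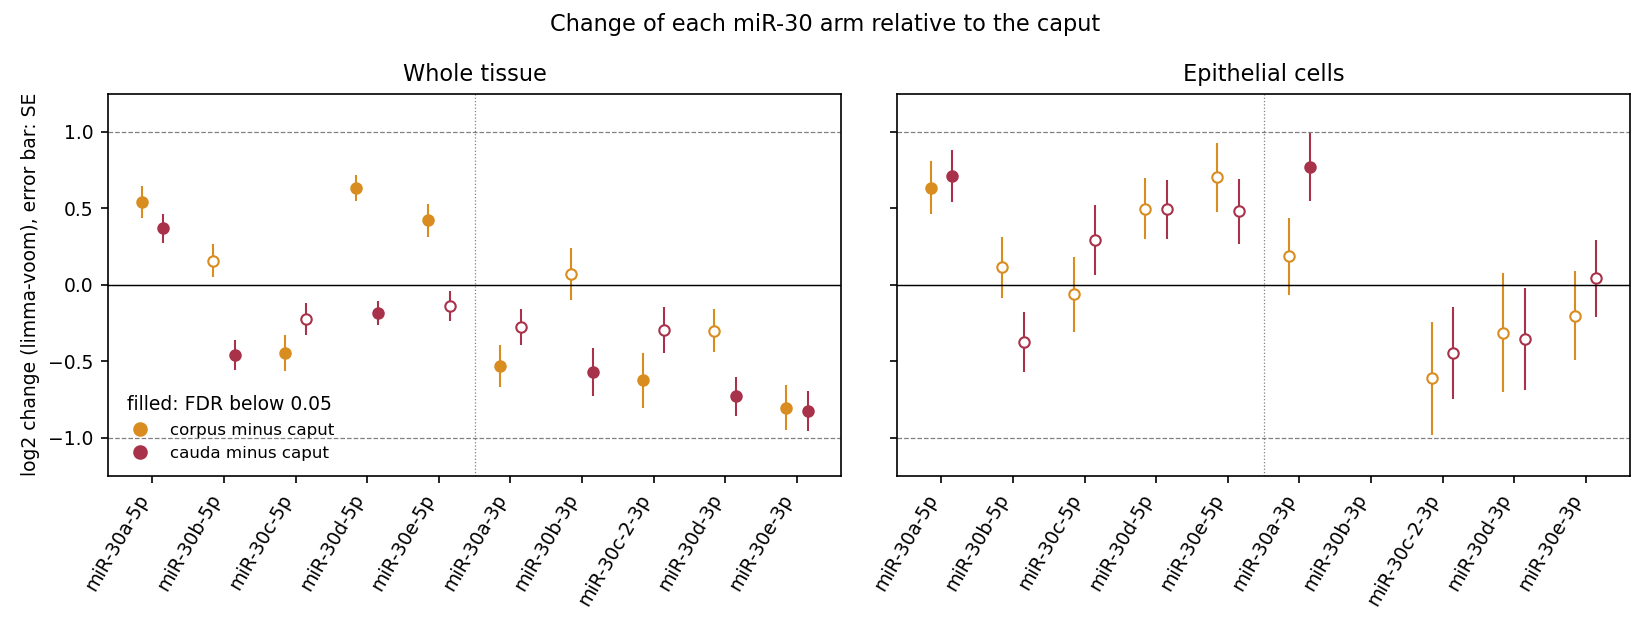
Log2 change of each arm from caput to corpus and from caput to cauda, with standard errors from limma-voom (3 caput, 2 corpus and 3 cauda libraries of whole tissue and 2 of each region of epithelial cells); filled points have an FDR below 0.05, dashed lines mark 2-fold, and miR-30b-3p was not tested in epithelial cells. In whole tissue 3 5p arms were higher in the corpus than in the caput while 3 3p arms were lower, and the caput to cauda changes of miR-30a-3p, miR-30c-5p, miR-30c-2-3p, miR-30d-5p and miR-30e-5p and the caput to corpus change of miR-30d-3p turn positive with scaling by library totals.

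Between the caput and the corpus of whole tissue, the 5p and 3p arms of miR-30a and of miR-30e changed in opposite directions. The 5p arms of miR-30d, miR-30a and miR-30e rose, and the 3p arms of miR-30e and miR-30a fell, as did both miR-30c arms. miR-30d-5p was 1.55-fold higher in the corpus (log2 change 0.63 ± 0.08 (SE), adjusted p = 0.00015). miR-30a-5p was 1.45-fold higher (0.54, adjusted p = 0.0019) and miR-30e-5p 1.34-fold higher (0.42, adjusted p = 0.0077). miR-30e-3p was 1.74-fold lower (log2 change -0.80 ± 0.15 (SE), adjusted p = 0.0012). miR-30a-3p changed by -0.53, miR-30c-2-3p by -0.62 and miR-30c-5p by -0.44. For all 7, picked by their call, the caput and corpus libraries did not overlap in CPM. How many of all miRNAs separated in this way was not counted. As shares of library counts miR-30c-5p overlapped, at 0.1705% in the first caput and 0.1708% in the second corpus library. The shares of 6 of the 8 marker lists did not overlap either, all higher in the corpus, while the epithelial and endothelial lists overlapped. In the corpus the stromal fibroblast list was at 0.375 and 0.398% (caput 0.198, 0.163 and 0.174%), the leukocyte list at 0.125 and 0.159% (caput 0.0863, 0.0896 and 0.0990%) and the red blood list at 0.0508 and 0.0452% (caput 0.0147, 0.0133 and 0.0129%).

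With limma-voom, 0 of 10 arms passed both thresholds, FDR under 0.05 and 2-fold or more, between caput and corpus of whole tissue, where 29.9% of the 334 miRNAs tested did. edgeR and DESeq2 also gave 0. By FDR alone 3 of 10 arms were higher in the corpus (26.6% of all miRNAs tested) and 4 of 10 were lower (32.6%), and the same 7 had an unadjusted p below 0.05. These shares were close to those of all miRNAs. The median change of the 5 5p arms was 0.42, that of the 5 3p arms -0.53 and that of all miRNAs tested -0.05. Scaling by library totals moved the median of all miRNAs up by 0.33 here and by 0.35 from caput to cauda, and in epithelial cells by 0.17 and 0.18. With it the falls of miR-30a-3p (-0.20), miR-30c-2-3p (-0.29) and miR-30c-5p (-0.11) no longer passed, miR-30b-5p passed at 0.49, and miR-30d-3p, not called at -0.30, was 0.03. The calls of miR-30d-5p, miR-30a-5p and miR-30e-3p held without each library in turn. That of miR-30e-5p was lost without the first corpus library (0.41) and that of miR-30a-3p without the second (-0.47). That of miR-30c-2-3p was lost without either corpus library (-0.64 and -0.55). That of miR-30c-5p was lost without the second caput (-0.35), caput replicate 3 (-0.37), the first corpus (-0.41) or the second corpus library (-0.43). With 1 corpus library left, that library was assumed to vary like the others.

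In epithelial cells, miR-30a-5p was 1.55-fold higher in the corpus than in the caput (log2 change 0.63 ± 0.17 (SE), adjusted p = 0.036, n = 2 and 2 in the limma-voom fit). miR-30e-5p was at 0.70 (adjusted p = 0.055) and miR-30d-5p at 0.50 (adjusted p = 0.12), and for each of these 3 both corpus libraries were above both caput libraries. So they were for the epithelial, smooth muscle, striated muscle and stromal fibroblast lists, while both were lower for the endothelial list. Of the 9 arms tested, 0 passed at 2-fold (12.2% of 205 miRNAs did), 1 was higher by FDR alone (9.76%) and 0 were lower (9.27%). Unadjusted, 3 had a p below 0.05, and edgeR and DESeq2 also gave 0 at 2-fold, 1 higher and 0 lower. The call of miR-30a-5p was lost without either caput library (0.57 and 0.75) or either corpus library (0.77 and 0.53), with TMM factors from all listed miRNAs (0.49) and with a replicate block (0.63). With DESeq2's size factors miR-30e-5p passed at 0.81, and with only the 2 regions in the fit miR-30d-5p passed at 0.57. Without the first cauda library miR-30d-5p passed at 0.56, and without the second miR-30e-5p passed at 0.73. The median change of the 5 5p arms was 0.50, that of the 4 3p arms -0.26 and that of all miRNAs -0.15. A test of the difference between the preparations called 0 of 9 arms (6.19% of 194 miRNAs were called with the higher change in epithelial cells). The differences ran from -0.03 for miR-30d-5p to 0.82 for miR-30a-3p, whose unadjusted p alone was below 0.05. For the other arms called in whole tissue alone they were 0.70 (miR-30e-3p), 0.47 (miR-30c-5p), 0.39 (miR-30e-5p) and 0.12 (miR-30c-2-3p). edgeR also called 0.

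From corpus to cauda of whole tissue, 3 of the 5p arms fell. miR-30d-5p was 1.76-fold lower in the cauda (log2 change -0.81 ± 0.08 (SE), adjusted p = 3.8e-05), miR-30b-5p 1.53-fold lower (-0.62, adjusted p = 0.00094) and miR-30e-5p 1.48-fold lower (-0.56, adjusted p = 0.0016). Of the 3p arms, miR-30b-3p fell by 0.64 and miR-30d-3p by 0.43 on the log2 scale, so that both arms of miR-30b and of miR-30d fell. In each of these 5 arms, picked by their call, the 2 groups did not overlap in CPM, and the share of all miRNAs that separated was not counted. miR-30e-3p was at -0.02 and did not pass. Between the same libraries the epithelial list was lower in the cauda (1.96 and 1.91% in the corpus against 1.08, 0.912 and 0.976%). The smooth muscle list (8.65 and 8.36% against 26.9, 24.9 and 27.0%), the red blood list (0.0508 and 0.0452% against 0.173, 0.251 and 0.274%) and the germ cell, leukocyte and endothelial lists were higher there. The stromal fibroblast and striated muscle lists overlapped.

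Here 0 of 10 arms passed at 2-fold (27.3% of 341 miRNAs did) with limma-voom, edgeR or DESeq2. By FDR alone 0 were higher (27% of all) and 5 were lower (27.3%), and the same 5 had an unadjusted p below 0.05. edgeR gave 0 higher and 5 lower, and DESeq2 gave 0 higher and 3 lower. The members had a median of -0.30, against 0.05 for all miRNAs. The calls of miR-30d-5p, miR-30b-5p and miR-30e-5p held without each library in turn. That of miR-30b-3p was lost without either corpus library (-0.61 and -0.65). That of miR-30d-3p was lost without the first corpus (-0.44), second corpus (-0.38), second cauda (-0.38) library or cauda replicate 3 (-0.35). It was also lost with a replicate block (-0.36) and with all miRNAs of at least 1 count tested (-0.43). Without the second cauda library miR-30a-3p passed as higher (0.37). With DESeq2's test the calls of miR-30b-3p (-0.64) and miR-30d-3p (-0.42) were lost.

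In epithelial cells limma-voom called 0 of 9 arms from corpus to cauda, at 2-fold (10.9% of 192 miRNAs) and by FDR alone, higher (7.81%) or lower (5.73%). edgeR and DESeq2 also called 0. Unadjusted, miR-30a-3p at 0.59 and miR-30b-5p at -0.49 had a p below 0.05, and miR-30a-3p passed the FDR at 0.85 without the second cauda library. The members' median was 0.08, as was that of all miRNAs. The difference between the preparations passed for 1 of 9 arms, with 7.22% of 194 miRNAs called in that direction. miR-30d-5p was near 0 in epithelial cells and at -0.81 in whole tissue, and in the fit of both preparations the difference was 0.76 (adjusted p = 0.025), or 0.60 above the median difference of 0.16 over all 194. It no longer passed with DESeq2's size factors (0.49). It was also lost without the first or second whole corpus (0.84 and 0.68), the second whole cauda (0.73), the first or second epithelial corpus (0.92 and 0.62) or the second epithelial cauda library (0.53). For miR-30b-5p, miR-30d-3p and miR-30e-5p, called in whole tissue alone, the differences were 0.08, 0.34 and 0.30 and did not pass.

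Between the ends of the duct, the caput and the cauda of whole tissue, miR-30a-5p was the member that rose, 1.29-fold (log2 change 0.37 ± 0.10 (SE), adjusted p = 0.0052). Of the arms that fell, miR-30e-3p was 1.77-fold lower in the cauda (log2 change -0.82 ± 0.13 (SE), adjusted p = 0.00021) and miR-30d-3p 1.66-fold lower (-0.73, adjusted p = 0.00041). Both arms of miR-30b fell, miR-30b-5p by 0.46 and miR-30b-3p by 0.57 on the log2 scale. miR-30d-5p fell by 0.18 (adjusted p = 0.048), but with library totals it was 0.16 and did not pass. In these 6 arms, picked by their call, the caput and cauda libraries did not overlap in CPM. How many of all miRNAs separated in this way was not counted. As shares of library counts they overlapped for miR-30b-5p, miR-30b-3p and miR-30d-5p, and not for miR-30a-5p, miR-30e-3p and miR-30d-3p. For miR-30b-5p the shares were 0.512, 0.583 and 0.531% (caput) and 0.474, 0.491 and 0.540% (cauda). This comparison shares its caput and cauda libraries with the comparisons above. The marker lists differed between the same libraries: the epithelial list was lower in every cauda library than in every caput library, and the other 7 lists were higher. In the cauda the stromal fibroblast list reached 0.374, 0.447 and 0.390%, the leukocyte list 0.213, 0.221 and 0.216% and the red blood list 0.173, 0.251 and 0.274%. Whether the changes of the members in the 3 whole tissue comparisons follow the mix of cells was not tested.

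With limma-voom, 0 of 10 arms passed at 2-fold, where 53.2% of 355 miRNAs did, and edgeR and DESeq2 also gave 0. By FDR alone 1 arm was higher (37.7% of all) and 5 were lower (41.4%), and 7 had an unadjusted p below 0.05. edgeR gave 1 higher and 4 lower, and DESeq2 gave 1 higher and 3 lower. Their median was -0.29 and that of all miRNAs -0.05. The call of miR-30d-5p was lost under every alternative of test, scaling, count filter and regions fitted and with a replicate block. It was also lost without any 1 library other than the first cauda library, and in those fits the change ranged from -0.17 without the first corpus library to -0.12 without the second caput library. Without cauda replicate 3 miR-30a-3p (-0.37) and miR-30c-5p (-0.32) passed as lower, and without the first cauda library miR-30c-2-3p did (-0.39). miR-30a-3p also passed with TMM factors from all listed miRNAs (-0.27). With DESeq2's test the call of miR-30b-3p was lost (-0.58). With library totals the calls of miR-30b-5p (-0.11) and miR-30b-3p (-0.22) were lost. The other changes, not called, turned positive with library totals for miR-30a-3p (0.07), miR-30c-2-3p (0.05), miR-30c-5p (0.12) and miR-30e-5p (0.21). The calls of miR-30a-5p, miR-30e-3p and miR-30d-3p held with every scaling and without each library in turn. With library totals, which moved the median of all miRNAs up by 0.35, the falls were smaller and the rise larger. Shares of library counts were 0.211, 0.188 and 0.175% (caput) and 0.328, 0.289 and 0.324% (cauda) for miR-30a-5p. For miR-30e-3p they were 0.0518, 0.0574 and 0.0519% and 0.0377, 0.0337 and 0.0450%. For miR-30d-3p they were 0.0228, 0.0222 and 0.0199% and 0.0195, 0.0158 and 0.0146%.

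In epithelial cells both arms of miR-30a rose from caput to cauda. miR-30a-5p was 1.64-fold higher (log2 change 0.71 ± 0.17 (SE), adjusted p = 0.015) and miR-30a-3p 1.71-fold higher (log2 change 0.77 ± 0.23 (SE), adjusted p = 0.031, n = 2 and 2 in the limma-voom fit), with both cauda libraries above both caput libraries. Of 9 arms tested, 0 passed at 2-fold (25.9% of 216 miRNAs), 2 were higher by FDR alone (20.8%) and 0 were lower (18.5%). Unadjusted, 3 had a p below 0.05, and edgeR and DESeq2 also gave 0 at 2-fold, 2 higher and 0 lower. The median change of the members was 0.29, and that of all miRNAs was near 0. Without the second cauda library 1 arm passed at 2-fold, miR-30a-3p at 1.07. It was also the setting in which miR-30c-5p passed the FDR, at 0.59. miR-30d-5p passed the FDR at 0.73 without the first cauda library and at 0.53 with DESeq2's size factors. The call of miR-30a-5p was lost without either caput library (0.69 and 0.83). That of miR-30a-3p was lost without either caput library (0.85 and 0.78) or the first corpus library (0.77). Of the 8 marker lists, 6 were also higher in both epithelial cauda libraries than in both caput libraries, namely the endothelial, epithelial and striated muscle lists, the stromal fibroblast list (0.651 and 0.539% against 0.261 and 0.306%), the leukocyte list (0.150 and 0.161% against 0.0766 and 0.0449%) and the red blood list (0.281 and 0.186% against 0.0419 and 0.0365%). The smooth muscle list was higher in the first cauda library alone and the germ cell list in the second alone, and the part of these cells in the rises was not tested.

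The change from caput to cauda differed between the preparations for 4 of 9 arms, all with the higher change in epithelial cells, where 25.3% of 194 miRNAs were called in that direction. The differences were 1.12 for miR-30a-3p (adjusted p = 0.0036), 0.93 for miR-30e-3p (0.025), 0.73 for miR-30d-5p (0.0085) and 0.69 for miR-30e-5p (0.039). The median difference of all 194 miRNAs was itself 0.38, and relative to it the 4 differences were 0.74, 0.55, 0.35 and 0.31. Without any 1 whole or epithelial corpus library this median lay between 0.192 and 0.196, although no corpus library enters the caput or cauda means. The smaller differences given below for those fits therefore went with a lower median of all miRNAs. The other 5 arms, among them miR-30a-5p at 0.40, miR-30b-5p at 0.14 and miR-30d-3p at 0.41, did not pass. With library totals 2 arms passed, with DESeq2's size factors 1 and with edgeR 3. The call of miR-30a-3p was lost only without the first epithelial cauda library (0.66). Those of miR-30d-5p and miR-30e-3p were lost without any 1 of the whole or epithelial corpus libraries (0.55 and 0.75 in each of these fits) or the first epithelial caput library (0.58 and 0.84). That of miR-30d-5p was also lost without the second epithelial cauda library (0.33) and that of miR-30e-3p without the first (0.42). That of miR-30e-5p held only without the second whole caput, first whole cauda or second epithelial caput library, and was lowest without the first epithelial caput library (0.34).

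**Figure D3:**
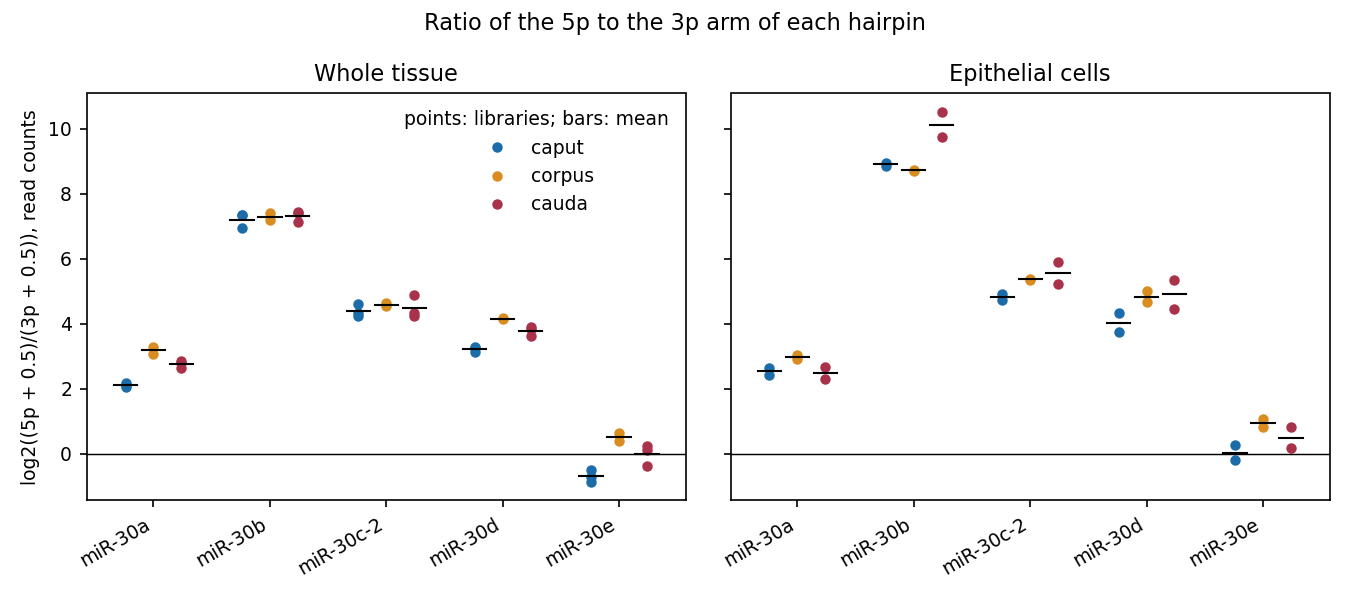
Log2 ratio of 5p to 3p counts of each miR-30 hairpin in each library (0.5 added to both counts), with libraries as points, means as bars and equal counts at 0. In whole tissue the corpus lay above the caput for miR-30a, miR-30d and miR-30e, and the ratio of miR-30e lay below 0 in every caput library and above it in both corpus libraries.

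The ratio of the arms within a hairpin is free of the scaling between libraries. miR-30e was the hairpin with the most even arms. The 5p share of its counts in whole tissue was 41.3, 35.4 and 37.6% (caput), 57.0 and 60.9% (corpus) and 51.8, 54.1 and 43.4% (cauda). In epithelial cells it was 46.4 and 54.8% (caput), 63.8 and 68.0% (corpus) and 52.8 and 63.8% (cauda). The 3p arm thus outnumbered the 5p arm in all 3 whole caput libraries, the 5p arm outnumbered the 3p arm in both corpus libraries, and the cauda libraries lay on both sides. In epithelial cells the 3p arm was ahead only in the first caput library. A change of the more abundant arm between every caput and every corpus library was seen for miR-30e alone among the 5 hairpins of whole tissue, and for 6 of all 97 hairpins (6.19%). In epithelial cells it was seen for 0 of 4 hairpins of the family and 0 of 29 in all (0%).

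For miR-30a the 5p share in whole tissue was 81.8, 80.5 and 81.4% (caput), 89.4 and 90.7% (corpus) and 87.3, 87.9 and 86.2% (cauda). For miR-30d it was 90.5, 89.8 and 90.7% (caput), 94.7 and 94.7% (corpus) and 92.5, 93.4 and 93.7% (cauda). Both had their lowest 5p share in the caput and their highest in the corpus, with no overlap between the 3 regions. miR-30c-5p, set against miR-30c-2-3p, made up 95 to 96.7%, and miR-30b-5p 99.2 to 99.4%, with regions that overlapped. In epithelial cells the 5p share of miR-30a was 84.3 and 86.2% (caput), 88.4 and 89.2% (corpus) and 83.0 and 86.5% (cauda). That of miR-30d was 93.1 and 95.3% (caput), 97.1 and 96.3% (corpus) and 95.7 and 97.7% (cauda). The caput and cauda of miR-30a overlapped there, and the corpus was above both.

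From caput to corpus of whole tissue the ratio of 5p to 3p rose 2.33-fold for miR-30e (log2 change 1.22 ± 0.17 (SE), adjusted p = 1.4e-05), 2.10-fold for miR-30a (1.07 ± 0.13, adjusted p = 3e-06) and 1.91-fold for miR-30d (0.93 ± 0.14, adjusted p = 2.5e-05). The ratio was thus higher in 3 of 5 hairpins, against 19.6% of the 97 hairpins tested with limma, and lower in 0 (11.3% of all). The 3 had an unadjusted p below 0.05. miR-30b (0.09) and miR-30c-2 (0.18) did not pass. The median change of the 5 hairpins was 0.93 and that of all 97 was 0.22. From caput to cauda the same 3 ratios rose, by 0.69 for miR-30e (adjusted p = 0.0017), 0.65 for miR-30a (0.0002) and 0.55 for miR-30d (0.0018), against 24.7% of all hairpins that rose, and 0 of 5 fell (13.4% of all). Unadjusted, the same 3 had a p below 0.05, and the median was 0.55 against 0.12 for all. The 3 calls of each of these comparisons held without each library in turn and under every alternative tried.

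From corpus to cauda of whole tissue the ratio fell back by 0.54 for miR-30e (adjusted p = 0.037) and 0.42 for miR-30a (0.033) on the log2 scale, so that 2 of 5 hairpins were lower (9.28% of all) and 0 were higher (8.25%). Unadjusted, 3 had a p below 0.05, the further one being miR-30d at -0.38 (adjusted p = 0.06), which passed where both arms needed a mean count above 50. Both calls were lost when the variance was modelled with no intensity trend, with a trend on both arms or with a replicate block. The changes stayed at -0.54 (miR-30e) and -0.42 (miR-30a) with both variance models and were -0.44 and -0.39 with the block. Both were lost without the second corpus library (-0.42 for miR-30e and -0.32 for miR-30a), the first cauda library (-0.60 and -0.43) or cauda replicate 3 (-0.35 and -0.36). That of miR-30e was lost without the first corpus library (-0.65) and that of miR-30a without caput replicate 3 (-0.42).

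In epithelial cells, where 4 of the 5 hairpins had enough counts in both arms, limma called 0 of 4 ratios in each comparison. Among the 29 hairpins tested, 6.9% were called in either direction from caput to corpus, 6.9% from corpus to cauda and 10.3% from caput to cauda. Unadjusted, 1, 1 and 0 of the 4 had a p below 0.05, and no other tool was run on the ratios. From caput to corpus the changes were 0.91 for miR-30e (adjusted p = 0.079), 0.80 for miR-30d, 0.54 for miR-30c-2 and 0.45 for miR-30a. For each of the 4 both corpus libraries were above both caput libraries. miR-30e passed without the first cauda library (adjusted p = 0.024) or the second (0.043), and with a replicate block or a mean count above 50 in both arms, always at 0.91. From corpus to cauda they ran from -0.50 for miR-30a to 0.19 for miR-30c-2. From caput to cauda they were 0.87 for miR-30d, 0.73 for miR-30c-2, 0.45 for miR-30e and -0.05 for miR-30a. These values hung on single libraries. Leaving out each in turn, they ran from caput to cauda over 0.42 to 1.32 for miR-30d, 0.38 to 1.08 for miR-30c-2, 0.13 to 0.78 for miR-30e and -0.24 to 0.14 for miR-30a. From caput to corpus the ranges were 0.67 to 1.15, 0.51 to 1.09, 0.44 to 0.64 and 0.34 to 0.55, in the order of the changes given above. Whether the ratios changed differently in the preparations was not tested.

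Over both preparations together, the arm ratio was compared between caput and cauda with the exact two-sided permutation test described above, whose smallest p is 0.0167. The mean change was 0.71 for miR-30d (exact p = 0.0167, 0.0835 adjusted over the 5 hairpins), 0.57 for miR-30e (exact p = 0.05), 0.30 for miR-30a (0.1) and 0.41 for miR-30c-2 (0.15). After adjustment none passed, with 1 at an unadjusted exact p below 0.05. A single hairpin at the smallest p is adjusted to 0.0835 unless others are low too. The adjusted test therefore could not call 1 hairpin alone, whatever its values. The ratio of miR-30b was computed too and is among the 5 adjusted over, but it is not read as a result, since its epithelial 3p counts were 0 to 3. For miR-30d every cauda library was above every caput library of its preparation, which is what the smallest p requires. Without the first epithelial cauda library 2 passed, miR-30d at 0.93 and miR-30e at 0.73.

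The further arm miR-30c-1-3p, whose hairpin lies beside miR-30e in Nfyc, reached 54.0, 68.3 and 53.2 CPM (caput), 32.9 and 21 (corpus) and 26.2, 22.8 and 27.1 (cauda) of whole tissue. It was 2.21-fold lower in the corpus than in the caput (log2 change -1.14 ± 0.23 (SE), adjusted p = 0.002) and 2.27-fold lower in the cauda (log2 change -1.18 ± 0.19 (SE), adjusted p = 0.00029). Every caput library was above every other library. The 2-fold threshold was passed in both comparisons with TMM factors, but with library totals the arm was 1.75-fold lower in the corpus (log2 change -0.81) and 1.78-fold lower in the cauda (-0.83), so that it still passed at FDR 0.05 and no longer reached 2-fold. In epithelial cells it had 1 to 5 counts in a library and was not tested. The ratio of miR-30c-5p, which 2 hairpins share, to miR-30c-1-3p rose by 0.69 from caput to corpus (adjusted p = 0.04) and 0.97 from caput to cauda (0.0018). The corpus libraries differed widely, with log2 ratios of 5.47 and 6.19, against 5.13, 4.98 and 5.31 (caput) and 6.01, 6.11 and 6.21 (cauda). The size of the first change therefore depended on which corpus library was used. Both arms of miR-384, whose 5p arm also carries the 5p seed, had at most 5 counts in a library.

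The miRNAs whose level was most like the summed miR-30 5p arms were sought among 119 miRNAs present in every region of both preparations, by Pearson's r of log2 CPM over the 8 whole tissue libraries. They were miR-484 (r = 0.98), miR-320-3p (0.91), miR-106b-5p (0.88), miR-200c-3p (0.85) and miR-186-5p (0.84), all with their highest mean in the corpus. Over the 6 epithelial libraries the same r values were -0.38, 0.00, 0.67, -0.38 and 0.48. The likeness in whole tissue therefore did not carry over to epithelial cells for miR-484, miR-320-3p and miR-200c-3p. The libraries of a region are not independent of its mean, and these correlations are descriptions without a test.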

How the data were processed

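The expected counts of reads for each mature miRNA were used as deposited by the authors, whose processing notes name CASAVA 1.8.2 and Bowtie 1.1.1. Some values are fractions, and how reads that fit more than 1 miRNA were divided is not stated. A constant of 0.001, added to every epithelial value, was removed, and counts were rounded to whole numbers for the tests on counts. Region differences were tested with limma-voom (limma 3.58.1, edgeR 4.0.16, DESeq2 1.42.0, R 4.3.3), with 1 fit for each preparation. A miRNA was tested where its mean count was above 10 in at least 1 of the 2 regions, and p-values were adjusted by Benjamini-Hochberg over all miRNAs tested. Differences between preparations were tested in 1 fit of all 14 libraries. Arm ratios were tested with limma on log2 ratios of 5p to 3p counts, with 0.5 added to both. The scripts were tested on simulated data before use.

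TMM factors were first taken from all listed miRNAs. Factors from miRNAs with a mean count above 10 in any region were adopted after the calls of the first version over all miRNAs had been seen to differ from those of an earlier processing of these data, which the adopted factors were chosen to follow. The first version is kept as an alternative. The intensity trend of the arm ratios, on the mean log2 count of the lower arm, was also chosen after the files were seen, as were the alternatives of a trend on both arms and of DESeq2 size factors for the differences between preparations. The members and lists were chosen with earlier results of these data known. Besides the 10 members, named miRNAs were limited to other listed miR-30 names, listed miRNAs with a member's seed, markers and the 5 miRNAs most like the summed 5p arms. Values are mostly rounded to 2 decimals (log2) or 3 significant digits. Larger values keep every digit left of the point, with decimals where the whole number would end in 0, and small ones keep at least 2 significant digits.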

Additional observations from a re-analysis of the deposited data

Results flagged for a closer look

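The region changes of 4 arms differed between the preparations. From caput to cauda, the log2 change in epithelial cells exceeded that in whole tissue by 1.12 for miR-30a-3p, 0.93 for miR-30e-3p, 0.73 for miR-30d-5p and 0.69 for miR-30e-5p. From corpus to cauda it did so by 0.76 for miR-30d-5p. Each passed an FDR below 0.05 in the limma-voom fit of both preparations. Changes higher in epithelial cells were called for 25.3% of all 194 miRNAs from caput to cauda, with a median difference of 0.38, and for 7.22% from corpus to cauda, with a median of 0.16. From caput to cauda, 2 of the 4 arms passed with library totals and 1 with DESeq2's size factors, and from corpus to cauda the arm no longer passed with DESeq2's size factors.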

How the results depend on the processing

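Whole corpus and all epithelial groups had only 2 libraries, so that leaving out 1 leaves a region without its own spread. Replicates are called biological and technical in different places, and the preparations differ in cell isolation and depth. Tissue was pooled from several mice, and bulk samples do not separate cell number from RNA per cell. Reads of miR-30a-3p and miR-30e-3p can be shared, and the treatment of such reads was not stated. The main fits did not pair libraries across regions by replicate number. In a check for pairing, libraries of the same number correlated at -0.05 to 0.22 in whole tissue, over 0.1 in 4 of 7 pairs. In epithelial cells the correlations were -0.09 to 0.22, over 0.1 in 2 of 6 pairs. Whether the numbers pair libraries was therefore not settled, and a replicate block is given as an alternative. The TMM factors from miRNAs with enough counts, the trend on the lower arm and 3 alternatives were chosen after the data were seen. The cause of any shift below was not tested. Values are log2 changes, or numbers of arms, hairpins or ratios that passed.

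With DESeq2's Wald test, values that moved or changed sign were 3 (whole corpus to cauda arms with FDR below 0.05), 0.00075 (miR-30d-3p epithelial corpus to cauda) and 0.0041 (miR-30d-5p epithelial corpus to cauda). With DESeq2 size factors, values that moved or changed sign were 0.023 (miR-30e-3p whole corpus to cauda), 2 (epithelial caput to corpus arms with FDR below 0.05), 0.040 (miR-30c-5p epithelial caput to corpus), 0 (difference between preparations corpus to cauda arms with FDR below 0.05), -0.058 (miR-30a-5p difference between preparations corpus to cauda) and -0.18 (miR-30b-5p difference between preparations corpus to cauda). Also with DESeq2 size factors, values that moved or changed sign were -0.16 (miR-30c-5p difference between preparations corpus to cauda), -0.037 (miR-30e-3p difference between preparations corpus to cauda), 1 (difference between preparations caput to cauda arms with FDR below 0.05) and -0.15 (miR-30b-5p difference between preparations caput to cauda). With TMM factors from all listed miRNAs, added after the data were seen, values that moved or changed sign were 0 (epithelial caput to corpus arms with FDR below 0.05), -0.029 (miR-30b-5p epithelial caput to corpus), 0.033 (miR-30d-5p epithelial corpus to cauda) and -0.051 (miR-30e-3p epithelial caput to cauda).

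Where at least 10 counts in every library were required, values that moved or changed sign were 0.0029 (miR-30d-5p epithelial corpus to cauda). Where both arms needed a mean count above 50, values that moved or changed sign were 1 (epithelial caput to corpus hairpins with a changed arm ratio). With edgeR's quasi-likelihood test, values that moved or changed sign were 0.0060 (miR-30d-3p epithelial corpus to cauda) and 0.0046 (miR-30d-5p epithelial corpus to cauda). Scaled by library totals, values that moved or changed sign were 0.033 (miR-30d-3p whole caput to corpus), 3 (whole caput to cauda arms with FDR below 0.05), 0.070 (miR-30a-3p whole caput to cauda), 0.050 (miR-30c-2-3p whole caput to cauda), 0.12 (miR-30c-5p whole caput to cauda) and 0.16 (miR-30d-5p whole caput to cauda).

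Also scaled by library totals, values that moved or changed sign were 0.21 (miR-30e-5p whole caput to cauda), 0.10 (miR-30c-5p epithelial caput to corpus), 0.015 (miR-30d-5p epithelial corpus to cauda), -0.076 (miR-30a-5p difference between preparations caput to corpus), -0.21 (miR-30b-5p difference between preparations caput to corpus) and -0.16 (miR-30c-2-3p difference between preparations caput to corpus). Also scaled by library totals, values that moved or changed sign were -0.19 (miR-30d-3p difference between preparations caput to corpus), 2 (difference between preparations caput to cauda arms with FDR below 0.05) and -0.069 (miR-30b-5p difference between preparations caput to cauda). With no intensity trend, values that moved or changed sign were 0 (whole corpus to cauda hairpins with a changed arm ratio). With only the 2 regions compared in the fit, values that moved or changed sign were 2 (epithelial caput to corpus arms with FDR below 0.05) and 0.0037 (miR-30c-5p epithelial caput to corpus).

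With a replicate block, values that moved or changed sign were 0 (epithelial caput to corpus arms with FDR below 0.05), 0 (whole corpus to cauda hairpins with a changed arm ratio), -0.021 (miR-30b whole corpus to cauda arm ratio) and 1 (epithelial caput to corpus hairpins with a changed arm ratio). With a trend on the mean of both arms, added after the data were seen, values that moved or changed sign were 0 (whole corpus to cauda hairpins with a changed arm ratio).

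Leaving out each library in turn gave lowest and highest values of 0 (without epithelial caput 1) and 3 (without epithelial cauda 1) for epithelial caput to cauda arms with FDR below 0.05, 0 (without epithelial caput 1) and 1 (without epithelial cauda 2) for epithelial caput to cauda arms with FDR below 0.05 and at least 2-fold and 0 (without epithelial caput 1) and 2 (without epithelial cauda 1) for epithelial caput to corpus arms with FDR below 0.05. Next were 0 (without epithelial caput 1) and 1 (without epithelial cauda 1) for epithelial caput to corpus hairpins with a changed arm ratio, 0 (without epithelial caput 1) and 1 (without epithelial cauda 2) for epithelial corpus to cauda arms with FDR below 0.05 and 0.34 (without epithelial corpus 2) and 0.72 (without epithelial corpus 1) for epithelial share of 5p arms, caput to corpus. Values ranged over 0 (without whole caput 1) and 2 (without epithelial cauda 1) for hairpins with an adjusted exact p below 0.05 for the arm ratio, caput to cauda, 1 (without whole corpus 1) and 4 (without whole caput 2) for difference between preparations caput to cauda arms with FDR below 0.05 and 0 (without whole corpus 1) and 1 (without whole caput 1) for difference between preparations corpus to cauda arms with FDR below 0.05. Ranges were -0.24 (without epithelial cauda 2) and 0.14 (without epithelial cauda 1) for miR-30a epithelial caput to cauda arm ratio, -0.056 (without epithelial corpus 1) and 0.21 (without epithelial corpus 2) for miR-30a-5p epithelial corpus to cauda and -0.15 (without epithelial corpus 2) and 0.40 (without epithelial caput 2) for miR-30a-5p difference between preparations caput to corpus. The lowest and highest were -0.0067 (without whole caput 1) and 0.22 (without whole cauda 1) for miR-30b whole caput to cauda arm ratio, -0.041 (without whole caput 1) and 0.20 (without whole corpus 1) for miR-30b whole caput to corpus arm ratio and -0.074 (without whole corpus 1) and 0.14 (without whole corpus 2) for miR-30b whole corpus to cauda arm ratio.

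Next were -0.22 (without epithelial cauda 1) and 0.23 (without epithelial caput 2) for miR-30b-5p difference between preparations caput to cauda, -0.30 (without epithelial corpus 2) and 0.15 (without epithelial caput 2) for miR-30b-5p difference between preparations caput to corpus and -0.11 (without epithelial corpus 1) and 0.25 (without epithelial corpus 2) for miR-30b-5p difference between preparations corpus to cauda. Values ranged over -0.16 (without epithelial cauda 1) and 0.54 (without epithelial cauda 2) for miR-30c-2 epithelial corpus to cauda arm ratio, -0.12 (without whole cauda 3) and 0.20 (without whole cauda 1) for miR-30c-2 whole caput to cauda arm ratio and -0.30 (without whole cauda 3) and 0.017 (without whole cauda 1) for miR-30c-2 whole corpus to cauda arm ratio. Ranges were -0.015 (without epithelial corpus 1) and 0.32 (without epithelial corpus 2) for miR-30c-2-3p epithelial corpus to cauda, -0.25 (without epithelial corpus 2) and 0.20 (without epithelial caput 2) for miR-30c-2-3p difference between preparations caput to corpus and -0.21 (without epithelial corpus 2) and 0.13 (without epithelial corpus 1) for miR-30c-5p epithelial caput to corpus. The lowest and highest were -0.16 (without epithelial cauda 1) and 0.35 (without epithelial cauda 2) for miR-30c-5p difference between preparations corpus to cauda, -0.37 (without epithelial cauda 1) and 0.12 (without epithelial cauda 2) for miR-30c-5p over miR-30d-5p caput to cauda and -0.28 (without epithelial cauda 1) and 0.0019 (without epithelial cauda 2) for miR-30c-5p over miR-30e-5p caput to cauda. Next were -0.38 (without epithelial cauda 2) and 0.52 (without epithelial cauda 1) for miR-30d epithelial corpus to cauda arm ratio, -0.33 (without epithelial cauda 1) and 0.18 (without epithelial cauda 2) for miR-30d-3p epithelial corpus to cauda and -0.0037 (without epithelial cauda 1) and 0.57 (without epithelial caput 1) for miR-30d-3p difference between preparations caput to cauda.

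Values ranged over -0.18 (without whole corpus 1) and 0.23 (without epithelial caput 1) for miR-30d-3p difference between preparations caput to corpus, -0.20 (without epithelial cauda 2) and 0.18 (without epithelial corpus 1) for miR-30d-5p epithelial corpus to cauda and -0.37 (without epithelial corpus 1) and 0.12 (without epithelial caput 2) for miR-30d-5p difference between preparations caput to corpus. Ranges were -0.12 (without epithelial cauda 2) and 0.090 (without epithelial cauda 1) for miR-30d-5p over miR-30e-5p caput to cauda, -0.27 (without epithelial cauda 1) and 0.38 (without epithelial cauda 2) for miR-30e-3p epithelial caput to cauda and -0.12 (without epithelial cauda 1) and 0.56 (without epithelial cauda 2) for miR-30e-3p epithelial corpus to cauda. The lowest and highest were -0.097 (without epithelial cauda 1) and 0.51 (without epithelial cauda 2) for miR-30e-3p difference between preparations corpus to cauda, -0.14 (without whole corpus 2) and 0.13 (without whole corpus 1) for miR-30e-3p whole corpus to cauda and 0 (without whole caput 1) and 4 (without whole caput 3) for ratios between 5p arms with an adjusted exact p below 0.05. Next were 4 (without whole corpus 1) and 7 (without whole caput 1) for whole caput to corpus arms with FDR below 0.05, 3 (without whole corpus 1) and 5 (without whole caput 1) for whole corpus to cauda arms with FDR below 0.05 and 0 (without whole corpus 2) and 2 (without whole caput 1) for whole corpus to cauda hairpins with a changed arm ratio. Values ranged over 0.50 (without whole corpus 2) and 0.67 (without whole corpus 1) for whole share of 5p arms, caput to corpus.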
